A study of Homo sapiens with 6 samples.

Results

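The Notch receptor genes NOTCH1, NOTCH2 and NOTCH3, the ligand genes DLL1, DLL3, DLL4, JAG1 and JAG2, and the target genes HES1 and HEY1 were followed in HEK293T cells treated with valproic acid (VPA). They were taken by symbol, 10 genes of the 47470 listed in the count files, and all 10 passed the filter on low counts that left 15298 genes in the test. HEK293T is a permanent human embryonic kidney line, derived from HEK293 cells, that carries the SV40 large T antigen. VPA inhibits class I and class IIa histone deacetylases. RNA was collected from 3 libraries of cells kept for 1 day in 1 mM VPA and from 3 libraries of untreated wild-type cells in medium without VPA. The replicates carry the numbers 1 to 3 in the labels, which do not say that they came from separate cultures, so the p-values measure the spread between these libraries, which may be technical.

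Notch signalling passes between cells in contact. A Delta-like (DLL) or Jagged (JAG) ligand on the sending cell binds a NOTCH receptor on the neighbour, proteases then cut the receptor, and its freed intracellular part enters the nucleus. There it joins the DNA-binding protein RBPJ and Mastermind-like coactivators and turns on targets such as the HES and HEY genes, which code for transcriptional repressors of the basic helix-loop-helix class. Without the intracellular part, RBPJ recruits corepressors that work with histone deacetylases. In the embryonic kidney and the nervous system the pathway is known for choosing between cell fates, with HES1 holding back proneural factors.

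The libraries held 18622267 to 18828495 counts on genes. Replicates were not copies of each other, since their counts differed beyond counting noise (chi-square of 1.63 to 4.97 per gene), and all 6 libraries were kept. Of 10 transcription factor genes of the embryonic kidney all had counts, but PAX8 had 2 in all 6 libraries together. Their summed level was 7055 to 7600 normalized counts in untreated and 4894 to 4953 in VPA-treated cells. That of 5 markers of simple epithelium, with KRT19 at 0, was 1536 to 1712 and 2774 to 2973, and that of 5 blood cell markers 21.7 to 36.7 and 36.4 to 47.0. Normalized counts are raw counts scaled by TMM to the mean library, and fold changes are VPA-treated against untreated from edgeR's quasi-likelihood test, with p-values adjusted by the Benjamini-Hochberg method over the 15298 genes.

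VPA-treated cells had more RNA of 4 of the 5 ligands and of NOTCH3, slightly more of NOTCH1, and less of NOTCH2 and HES1. At an adjusted p under 0.05, 6 of the 10 genes were higher, where 32.9% of all tested genes were, and 2 were lower, where 30.0% were. With a log2 fold change of at least 1 as well, NOTCH3, DLL1, DLL4 and JAG2 were up-regulated, 4 of 10 against 12.0% of all tested genes. None was down-regulated, against 0.503%, by edgeR or DESeq2 and whether the p was adjusted or not, since the lowest log2 fold change was -0.61. The median log2 fold change of the 10 genes was 0.56, beside 0.0058 over all tested genes. In 6 genes every VPA-treated library lay above every untreated library, which held for 34.8% of tested genes, and in 2 every one lay below, which held for 31.0%. In bulk RNA, fewer cells that express a gene and less RNA of it per cell cannot be told apart. The balance of directions depended on the scaling, with 8 members higher and 1 lower when the libraries were scaled on ribosomal protein genes. That scaling raised the median of all genes to 0.28, and 91.6% of all genes called with it were higher.

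**Figure D1:**
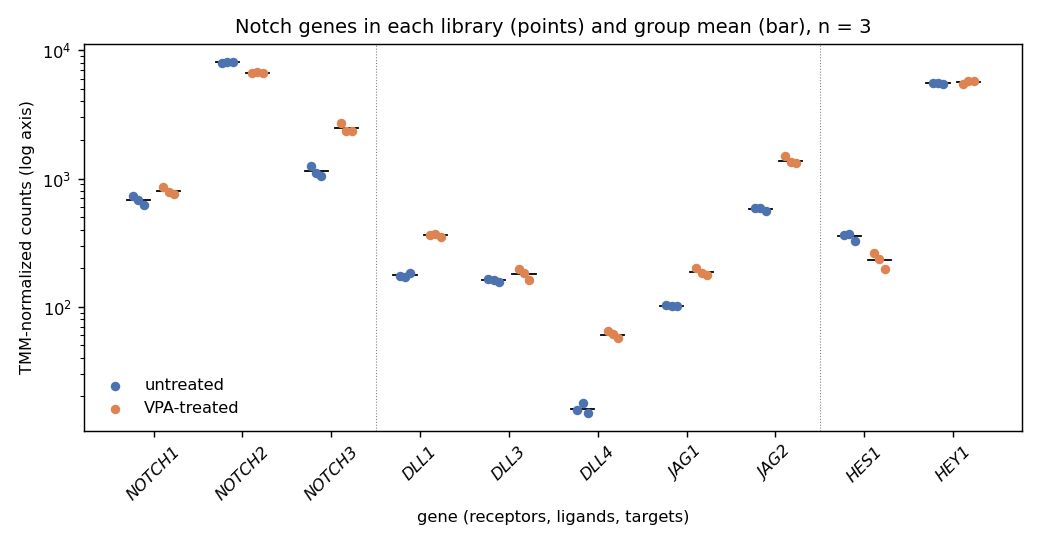
TMM-normalized counts (log axis) of the 10 Notch genes in each of the 3 untreated (blue) and 3 VPA-treated (orange) libraries, with the group mean as a bar. The groups separate in 8 genes and overlap in DLL3 and HEY1, and DLL4 is the gene with the fewest counts.

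Among the receptors, NOTCH2 was the most abundant and fell. NOTCH2 maps to chr1:119911553-120069662 (minus strand, RefSeq, GRCh38.p14). It had 7972, 8124 and 8177 normalized counts without VPA and 6633, 6758 and 6638 with VPA. The untreated libraries were all higher, by more than the spread within either group (log2 fold change = -0.28 ± 0.038 SE, edgeR adjusted p = 1.88e-06). With ribosomal protein scaling the value was -0.0053 (edgeR adjusted p = 0.909), so the decrease was not seen relative to ribosomal protein genes. With TMM, 57.4% of the tested genes whose mean reached 1000 normalized counts were lower. The human-specific NOTCH2NL genes are partial copies of NOTCH2, and reads that fit both places equally well were not counted for either. NOTCH2NLA, NOTCH2NLB and NOTCH2NLC had 64.4, 47.7 and 40.7 normalized counts on average in untreated cells and 62.4, 44.5 and 41.3 in VPA-treated cells, and none of them passed the test.

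NOTCH3 rose. The gene codes for a receptor known from smooth muscle around vessels and is itself a target of Notch signalling. It maps to chr19:15159038-15200995 (minus strand). It had 1249, 1105 and 1055 normalized counts without VPA and 2718, 2362 and 2365 with VPA. Replicate 1 was the highest library of each condition, and every VPA-treated library lay well above every untreated one (log2 fold change = 1.13 ± 0.064 SE, edgeR adjusted p = 1.35e-10). Between libraries with the same replicate number the fold was 2.18, 2.14 and 2.24. Genes with as many counts as NOTCH3 were seldom up-regulated, 0.732% of the 4643 tested genes whose mean reached 1000 normalized counts.

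NOTCH1, the receptor known from T-cell leukaemia and from early vessel and brain development, rose less. It maps to chr9:136494433-136546048 (minus strand). It had 725, 680 and 621 normalized counts without VPA and 856, 789 and 757 with VPA. The lowest VPA-treated library was only slightly above the highest untreated library, but the groups did not overlap (log2 fold change = 0.24 ± 0.063 SE, edgeR adjusted p = 0.00197). The fourth receptor, NOTCH4, had 4 to 9 raw counts per library and was not tested.

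Because the receptors changed unequally, their proportions shifted. Levels of different genes were compared as normalized counts per kilobase of the Ensembl canonical transcript in GENCODE 44, and a gene's share is its part of the summed per-kilobase level of its role within a library, which does not depend on the scaling between libraries. NOTCH2 made up 77.9% ± 1.66 of the receptor level in untreated cells and 61.3% ± 1.94 with VPA (SD, n = 3 each). The NOTCH3 share was 14.4% ± 1.15 without VPA and 29.9% ± 1.67 with VPA (SD, n = 3 each). The NOTCH1 share was 7.76% ± 0.53 and 8.77% ± 0.31. For each of the 3 receptors the groups did not overlap (p = 0.1 in a two-sided exact permutation test, which cannot go lower with 3 libraries against 3). The summed receptor level was 909.7 ± 7.59 and 953.9 ± 26.2 per kilobase, a ratio of 1.05.

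**Figure D2:**
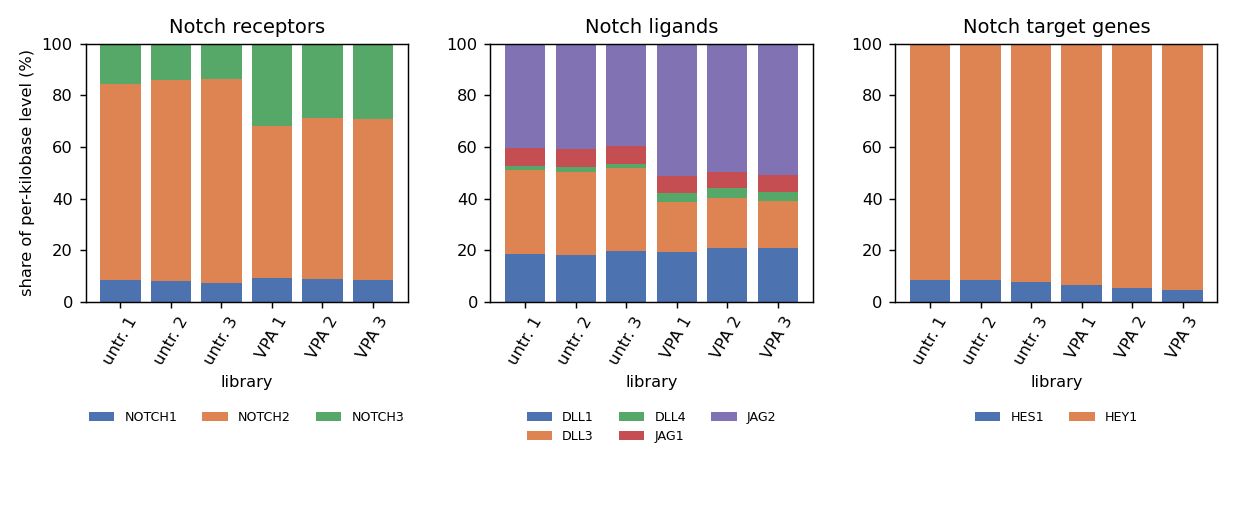
Share (%) of each gene in the summed per-kilobase level of the receptors (left), ligands (middle) and target genes (right) in each of the 6 libraries, with 1 stacked bar per library (untr., untreated). The NOTCH3 band widens from 14.4% to 29.9% and the DLL3 band narrows from 32.3% to 19.0% between the group means, while HEY1 fills over 90% of the target bar in every library.

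JAG2 was the ligand with the most RNA in both conditions and had the smallest p-value of the 10 genes. Jagged 2 is known from limb and craniofacial development. The gene maps to chr14:105140995-105168776 (minus strand). It had 590, 591 and 554 normalized counts without VPA and 1490, 1347 and 1311 with VPA. All 3 VPA-treated libraries lay far above the untreated ones (log2 fold change = 1.26 ± 0.058 SE, a 2.39-fold rise, edgeR adjusted p = 6.11e-14). JAG1, the ligand mutated in Alagille syndrome, maps to chr20:10637684-10673999 (minus strand). It had 102, 102 and 101 normalized counts without VPA and 199, 183 and 175 with VPA. The untreated libraries were nearly equal and the groups did not overlap (log2 fold change = 0.87 ± 0.10 SE, edgeR adjusted p = 2.42e-07), and the change was just under the threshold of 1 for up-regulation, which it passed with library totals and ribosomal protein scaling. The ratio of JAG2 to JAG1 counts within a library was 5.69 ± 0.17 without VPA and 7.44 ± 0.070 with VPA (SD, n = 3 each, two-sided exact permutation p = 0.1).

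DLL1, the Delta-like ligand that newborn neurons present to their neighbours, rose. It maps to chr6:170282206-170291078 (minus strand). It had 175, 170 and 182 normalized counts without VPA and 365, 369 and 352 with VPA. The libraries of each condition lay close together and the groups were well apart (log2 fold change = 1.05 ± 0.079 SE, edgeR adjusted p = 1.96e-10). In GENCODE 44 the gene overlaps FAM120B on the plus strand, which had 1247 ± 48.8 normalized counts without VPA and 1339 ± 19.4 with VPA (SD, n = 3 each). The libraries were strand-specific, but the strand setting of the counting is not given in the sources used here. A further entry listed as DLL1_1 stood at 0 in every library.

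DLL4 had the largest fold change and the fewest counts of the 10 genes. Delta-like 4 is known as the ligand of sprouting endothelium. The gene maps to chr15:40929340-40939073 (plus strand). It had 15, 17 and 14 raw counts without VPA and 67, 63 and 59 with VPA, 15.5, 17.8 and 14.7 against 64.2, 60.7 and 56.5 after normalization. The groups were far apart in spite of the low counts (log2 fold change = 1.91 ± 0.20 SE, edgeR adjusted p = 3.04e-08). In the class of DLL4, the tested genes that averaged fewer than 50 normalized counts, 29.4% were up-regulated. The summed level of 6 endothelial markers was 10.4 to 20.9 normalized counts in untreated and 138 to 171 in VPA-treated libraries, and KDR held most of it, with 13.9 and 134 on average. VWF had 0, 3 and 0 raw counts without VPA and 13, 20 and 17 with VPA (log2 fold change = 3.79 ± 0.61 SE, edgeR adjusted p = 1.42e-05). It passed the filter only through the VPA-treated libraries. PECAM1, CDH5 and TEK had at most 3 raw counts in any library and CLDN5 at most 1. The part of these markers in the DLL4 result was not tested. DLL3 differs from the other ligands in that the protein stays mostly inside the cell and is known to inhibit Notch in the cell that makes it. DLL3 maps to chr19:39498947-39508469 (plus strand). It had 165, 161 and 156 normalized counts without VPA and 196, 183 and 163 with VPA. The highest untreated library lay above the lowest VPA-treated library, and the difference did not pass the test (log2 fold change = 0.17 ± 0.098 SE, edgeR adjusted p = 0.139), though it did with upper quartile scaling (0.23, edgeR adjusted p = 0.0422), library totals (0.30) and ribosomal protein scaling (0.44).

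The summed ligand level rose from 248.6 ± 4.70 to 474.4 ± 29.0 normalized counts per kilobase (SD, n = 3 each), a ratio of 1.91, and the lowest VPA-treated library, at 447.5, lay above the highest untreated library, at 252.5. JAG2 held 40.3% ± 0.78 of it in untreated and 50.5% ± 0.81 in VPA-treated cells. The DLL3 share was 32.3% ± 0.25 and 19.0% ± 0.72, the DLL1 share 18.7% ± 0.95 and 20.2% ± 0.96, the JAG1 share 6.88% ± 0.078 and 6.59% ± 0.049 and the DLL4 share 1.88% ± 0.17 and 3.72% ± 0.040 (SD, n = 3 each). The share of each ligand separated the groups (two-sided exact permutation p = 0.1), except that of DLL1, whose groups overlapped (p = 0.2 from the same exact test). DLL3 came next after JAG2 in untreated cells, while in VPA-treated cells its per-kilobase level overlapped that of DLL1.

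NOTCH3, JAG2, JAG1 and DLL4 rose together and have a promoter in the RefSeq table for GRCh38.p14, which held 7 of the 10 genes (not DLL1, DLL3 and HEY1). Their 250 bases before the annotated start are shown for the GC box GGGCGG, the binding letters of SP1-type factors, in capitals on either strand. NOTCH3 held 5 matches, DLL4 3, and JAG1 and JAG2 2 each. NOTCH3 matches that run into each other share a base.
NOTCH3 (chr19:15200996-15201245, minus strand): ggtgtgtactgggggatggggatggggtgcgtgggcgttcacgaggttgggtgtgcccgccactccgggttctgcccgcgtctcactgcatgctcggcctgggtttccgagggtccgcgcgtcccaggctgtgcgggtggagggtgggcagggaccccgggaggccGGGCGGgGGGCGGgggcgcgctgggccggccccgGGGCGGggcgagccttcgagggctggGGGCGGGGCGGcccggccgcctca
JAG2 (chr14:105168777-105169026, minus strand): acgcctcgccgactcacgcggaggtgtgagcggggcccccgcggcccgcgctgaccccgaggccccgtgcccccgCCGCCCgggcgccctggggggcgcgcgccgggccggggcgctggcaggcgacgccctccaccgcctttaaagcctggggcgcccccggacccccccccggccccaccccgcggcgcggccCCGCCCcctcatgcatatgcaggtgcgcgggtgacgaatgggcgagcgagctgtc
JAG1 (chr20:10674000-10674249, minus strand): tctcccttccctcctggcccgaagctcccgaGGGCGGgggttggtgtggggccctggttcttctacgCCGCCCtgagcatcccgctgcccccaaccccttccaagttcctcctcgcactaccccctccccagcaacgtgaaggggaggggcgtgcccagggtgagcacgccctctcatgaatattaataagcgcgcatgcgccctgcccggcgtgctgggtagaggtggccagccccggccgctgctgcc
DLL4 (chr15:40929090-40929339, plus strand): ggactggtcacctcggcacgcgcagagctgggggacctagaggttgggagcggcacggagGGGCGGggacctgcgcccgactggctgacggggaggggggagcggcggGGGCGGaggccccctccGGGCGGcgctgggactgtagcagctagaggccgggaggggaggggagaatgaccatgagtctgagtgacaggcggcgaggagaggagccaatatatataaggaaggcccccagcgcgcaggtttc

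A GC box was found in 6 of the 7 promoters, HES1 being the exception, and in 42.6% of all 35116 promoters of that length. It was found at least at 2 places in 24.3% of all promoters. NOTCH2, which fell, had 1 match, and NOTCH1, which rose by 0.24 on the log2 scale and is not shown, had 4. The share of G and C was 78.0% for NOTCH3, 81.6% for JAG2, 68.4% for JAG1, 70.0% for DLL4, 76.0% for NOTCH1, 72.8% for NOTCH2, which fell, and 59.2% for HES1, which also fell, beside a median of 58.0% over all promoters. A match of letters is a description and does not show that a factor binds there.

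HES1 fell, alone among the 10 genes besides NOTCH2. HES1 is the target gene that keeps progenitors from differentiating, its RNA is short-lived, and its protein represses its own promoter. The gene maps to chr3:194136148-194138732 (plus strand). It had 365, 371 and 324 normalized counts without VPA and 263, 237 and 196 with VPA. The spread was wider than for JAG2 or DLL1, but every VPA-treated library was lower (log2 fold change = -0.61 ± 0.093 SE, edgeR adjusted p = 7.07e-06). Between libraries with the same number VPA-treated cells had 0.718, 0.640 and 0.605 of the untreated level. The decrease passed under each of the 5 scalings, with values between -0.62 and -0.34. The change of HES1 was lower than that of all but 2.63% of tested genes.

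The HES1 promoter is shown because it carries the letters GTGNGAA, a form of the RBPJ binding site. This spelling was chosen after the sequence had been read, in place of the core TGGGAA that was searched first. The matches are in capitals, 1 on each strand, and begin 85 and 62 bases before the annotated start.
HES1 (chr3:194135898-194136147, plus strand): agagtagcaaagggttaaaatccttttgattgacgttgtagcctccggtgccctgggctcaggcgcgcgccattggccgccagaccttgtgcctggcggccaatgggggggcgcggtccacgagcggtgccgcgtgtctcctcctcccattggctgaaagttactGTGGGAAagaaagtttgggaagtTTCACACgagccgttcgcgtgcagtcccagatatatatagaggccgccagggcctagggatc

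None of the other 6 promoters held GTGNGAA in this window, 11.6% of all promoters held it and 0.906% held it at least at 2 places. The core TGGGAA searched first was found 2 times in HES1, beginning 84 and 70 bases before the start, in none of the other 6 promoters and in 20.8% of all promoters. The letters TATAAA, a spelling of the TATA box that was also searched, were in none of the 7 and in 10.7% of all promoters. Other spellings were not searched, so a TATA box of another form could be present. The letters CACGNG, bound by HES and HEY repressors, were found 4 times in the HES1 promoter, 2 times for JAG2, and 1 time each for NOTCH3 and DLL4. Of all promoters 26.7% held them, and 6.24% held them at least at 2 places. In HES1 the match that begins 58 bases before the start overlaps the nearer GTGNGAA match.

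HEY1, the other target gene and a repressor known from heart and vessel development, was among the genes with the most counts. It had 5571, 5558 and 5443 normalized counts without VPA and 5504, 5808 and 5745 with VPA. The groups overlapped and the difference did not pass the test (log2 fold change = 0.042 ± 0.039 SE, edgeR adjusted p = 0.367). It was 0.11 with upper quartile scaling (edgeR adjusted p = 0.0247), 0.17 with library totals and 0.31 when scaled on ribosomal protein genes, and passed in all 3. HES1 and HEY1 therefore parted within the libraries, whatever the scaling. The ratio of HES1 to HEY1 counts was 0.0640 ± 0.0038 without VPA and 0.0409 ± 0.0068 with VPA (SD, n = 3 each, two-sided exact permutation p = 0.1), and HEY1 made up 91.8% ± 0.45 and 94.6% ± 0.85 of the summed per-kilobase level of both.

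**Figure D3:**
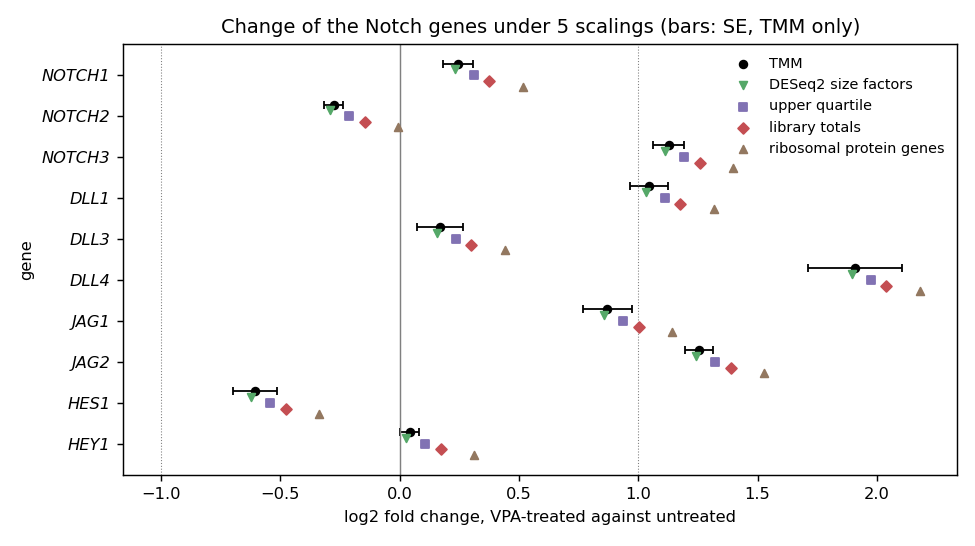
Log2 fold change (x axis) of the 10 Notch genes (y axis) with 5 ways of scaling the libraries, with the standard error for TMM and dotted lines at -1 and 1. The scalings move every gene by about the same amount, NOTCH2 comes to -0.0053 with ribosomal protein genes, and HES1 stays below 0 and NOTCH3, DLL1, DLL4 and JAG2 above 1 in all 5.

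Per kilobase, the order in untreated cells was HEY1 (2514 ± 32.1), NOTCH2 (708 ± 9.30), HES1 (224 ± 16.1), NOTCH3 (131 ± 11.6), JAG2 (100.2 ± 3.65), DLL3 (80.2 ± 2.06), NOTCH1 (70.6 ± 5.41), DLL1 (46.4 ± 1.59), JAG1 (17.1 ± 0.15) and DLL4 (4.67 ± 0.47 normalized counts per kilobase, SD, n = 3). No neighbours in that order overlapped. In VPA-treated cells NOTCH3 (286 ± 23.6) and JAG2 (239.5 ± 16.4) stood above HES1 (147 ± 21.2), and DLL1 (95.8 ± 2.30), DLL3 (90.2 ± 8.46) and NOTCH1 (83.7 ± 5.25) came next. The libraries of DLL3 overlapped those of both its neighbours, while those of DLL1 all lay above those of NOTCH1. JAG1 (31.3 ± 2.07) and DLL4 (17.7 ± 1.13) remained last.

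Among 12195 other tested genes whose mean reached 50 normalized counts, the profiles over the 6 libraries nearest to that of JAG2, the rising member of smallest p, were those of ADAM19, CCDC74B and COL5A1, at Euclidean distances of 0.068, 0.081 and 0.093 on the log2 scale. Nearest to NOTCH2, the falling member of smallest p, were DNAJC11, DESI1 and MRPL37, at 0.024, 0.024 and 0.031. With 6 libraries in 2 conditions, this likeness rests mainly on the size of the change.

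**Figure D4:**
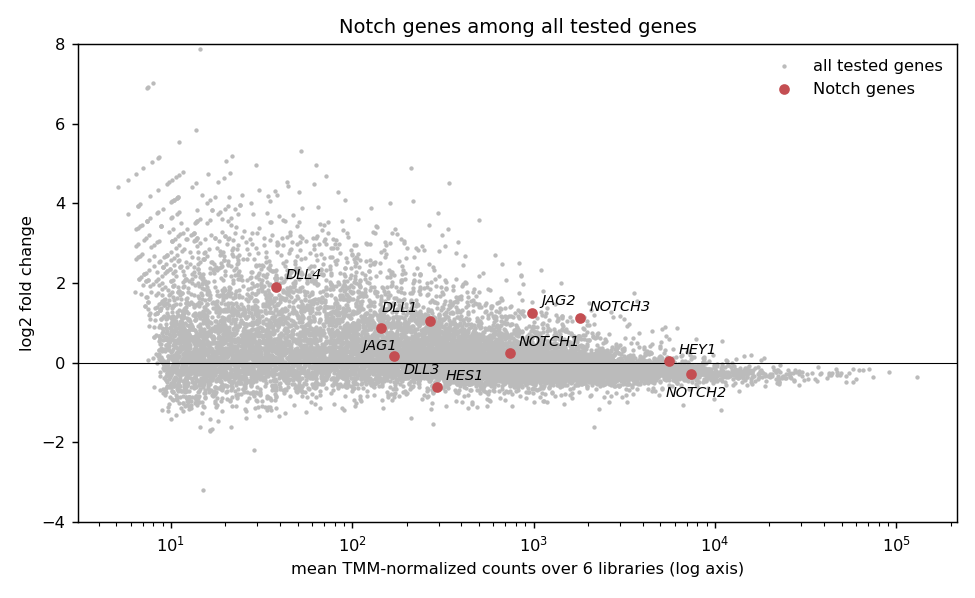
Log2 fold change (y axis) against mean TMM-normalized counts over 6 libraries (x axis, log) for the 15298 tested genes (grey), with the 10 Notch genes in red. JAG2 and NOTCH3 lie toward the upper edge of the cloud at their count level, and HES1 lies near its lower edge.

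The rest of the pathway was followed in 82 genes listed by role, of which 72 were tested, 29 were higher and 22 lower, with a median log2 fold change of 0.0033. Over all tested genes 32.9% were higher and 30.0% lower, and the counts by role, some of very few genes, are to be read beside the same shares. Both shares varied with count level, at 40.9% and 6.32% below a mean of 50 normalized counts and 14.6% and 57.4% from 1000. The share of higher genes among the called ones moved with the scaling, to 33 higher and 9 lower for library totals, and 50 and 7 for ribosomal protein scaling. DNER, MFNG, DTX1, DTX4, HES2 and HES7 had fewer than 10 raw counts in every untreated library. They passed the filter only through the VPA-treated libraries, so their being called higher was largely set by entry to the test. With at least 10 counts required in every library, 22 other pathway genes were higher and 21 lower. Both tested ligand-like genes rose. DNER had 2, 7 and 2 raw counts without VPA and 42, 38 and 32 with VPA (log2 fold change = 3.19 ± 0.35 SE, edgeR adjusted p = 8.57e-08), and DLK2, a relative of the Delta ligands without the receptor-binding domain, rose by 1.14 on the log2 scale. DLK1 was listed at 0. Of the ubiquitin ligases that ligands need for their endocytosis, 3 rose with every scaling, and MIB2, named after its value was seen, was lower with TMM (-0.21) but did not pass with ribosomal protein scaling (0.058). NEURL1B rose from 141 to 517 normalized counts on average (log2 fold change = 1.87 ± 0.076 SE, edgeR adjusted p = 8.51e-15), NEURL1 from 23.3 to 137, and MIB1, the ligase with the most counts, from 2316 to 2595.

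Genes that process the receptor moved both ways with TMM. Of 6 glycosylation genes 1 was higher and 2 were lower, and 3 were higher with ribosomal protein scaling. The 1 higher gene, MFNG, passed the filter only through the VPA-treated libraries, so its call was largely set by entry to the test. MFNG, a Fringe sugar transferase, rose from 4.87 to 17.3 normalized counts on average, and the glucosyltransferase gene POGLUT1 and the GlcNAc transferase gene EOGT had log2 fold changes of -0.18 and -0.33, which were 0.087 and -0.062 with ribosomal protein scaling and did not pass there. Of 9 protease genes 3 were higher and 3 lower with TMM, and 7 and 1 with ribosomal protein scaling. Within gamma-secretase, APH1B rose from 99.5 to 254 normalized counts (log2 fold change = 1.35 ± 0.10 SE, edgeR adjusted p = 1.88e-10), NCSTN fell from 2315 to 1697 (log2 fold change = -0.45 ± 0.044 SE, edgeR adjusted p = 1.53e-08), and APH1A, which codes for the alternative subunit to APH1B, was at -0.15, and at 0.12 with ribosomal protein scaling. Of 11 genes of receptor turnover and trafficking 5 were higher and 6 did not pass the test with TMM, and 10 were higher with ribosomal protein scaling. Among the higher ones, DTX1 and DTX4 passed the filter only through the VPA-treated libraries, so their call was largely set by entry to the test. DTX1, a Deltex gene that is also a known Notch target, had 4, 6 and 1 raw counts without VPA and 75, 59 and 73 with VPA (log2 fold change = 4.07 ± 0.31 SE, edgeR adjusted p = 1.85e-10), DTX4 rose by 3.62, and AAK1 by 0.37.

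Among RBPJ and its nuclear partners, 23 tested genes, 4 were higher and 15 lower with TMM, but 10 and 6 when scaled on ribosomal protein genes. Most of the 23 had a mean of at least 1000 normalized counts. Of all tested genes at that level 14.6% were higher and 57.4% lower with TMM. Of 9 tested genes of the activation complex 2 were higher and 7 lower with TMM, and 3 and 2 with ribosomal protein scaling. KAT2A, an acetyltransferase, fell from 3978 to 2191 normalized counts on average (log2 fold change = -0.86 ± 0.042 SE, edgeR adjusted p = 1.27e-13), and the acetyltransferase gene CREBBP by 0.52 on the log2 scale. MAML1 had -0.32, and -0.051 with ribosomal protein scaling. RBPJ itself had 1914 and 1707 normalized counts (log2 fold change = -0.17 ± 0.043 SE, edgeR adjusted p = 0.00213), which turned to 0.11 with ribosomal protein scaling (edgeR adjusted p = 0.0368). Of 14 corepressor genes 2 were higher and 8 lower with TMM, and 7 and 4 with ribosomal protein scaling. SPEN, which binds RBPJ and brings in deacetylase complexes, fell from 15121 to 6609 normalized counts on average, the 1 pathway gene that was down-regulated (log2 fold change = -1.19 with TMM and -0.92 with ribosomal protein scaling). The Groucho-type corepressor TLE4, a partner of HES proteins, fell from 4101 to 2342 (log2 fold change = -0.81 ± 0.040 SE, edgeR adjusted p = 2.02e-13), while TLE2 rose from 83.1 to 257 (log2 fold change = 1.63 ± 0.11 SE, edgeR adjusted p = 2.08e-11). SPEN, TLE4, KAT2A and CREBBP were lower under each of the 5 scalings.

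Of 7 other HES and HEY genes tested, 5 were higher and HES4 and HEY2, named after their values were seen, did not pass the test. Among the higher ones, HES2 and HES7 passed the filter only through the VPA-treated libraries, so their call was largely set by entry to the test. HES4 had a log2 fold change of -0.24 (edgeR adjusted p = 0.342), and the ratio of HES1 to HES4 counts was 0.608 ± 0.108 without VPA and 0.462 ± 0.0306 with VPA, with overlapping groups (SD, n = 3 each, two-sided exact permutation p = 0.2). HES2 had 8, 1 and 2 raw counts without VPA and 85, 70 and 75 with VPA (log2 fold change = 4.22 ± 0.31 SE, edgeR adjusted p = 1.68e-10), and HES7, known from the segmentation clock, had 8, 6 and 2 against 78, 57 and 71. HEYL rose from 284 to 475 normalized counts on average (log2 fold change = 0.74 ± 0.069 SE, edgeR adjusted p = 6.18e-09). Of 7 other reported targets 3 were higher and 1, MYC, was lower with TMM (-0.17), and 6 were higher with ribosomal protein scaling, MYC among them (0.097, edgeR adjusted p = 0.0452), with CDKN1A, the cell cycle inhibitor p21, rising by 0.66, ID1 by 0.32 and CCND1, cyclin D1, by 0.29 on the log2 scale.

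Among proneural and related factors that HES1 is known to repress, 3 were tested and all 3 were higher. ATOH1 had 12, 15 and 14 raw counts without VPA and 60, 56 and 60 with VPA (log2 fold change = 1.97 ± 0.21 SE, edgeR adjusted p = 3.30e-08), OLIG2 rose by 0.72 and NEUROG2 by 0.78. NEUROG1, NEUROG3, NEUROD1 and NEUROD4 had too few counts to be tested. The summed level of 8 neuronal markers was 6342 to 6714 normalized counts in untreated and 11510 to 12330 in VPA-treated libraries, most of it from NEFM, which the untreated line already expressed. The part of these markers in the ligand and proneural results was not tested.

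**Figure D5:**
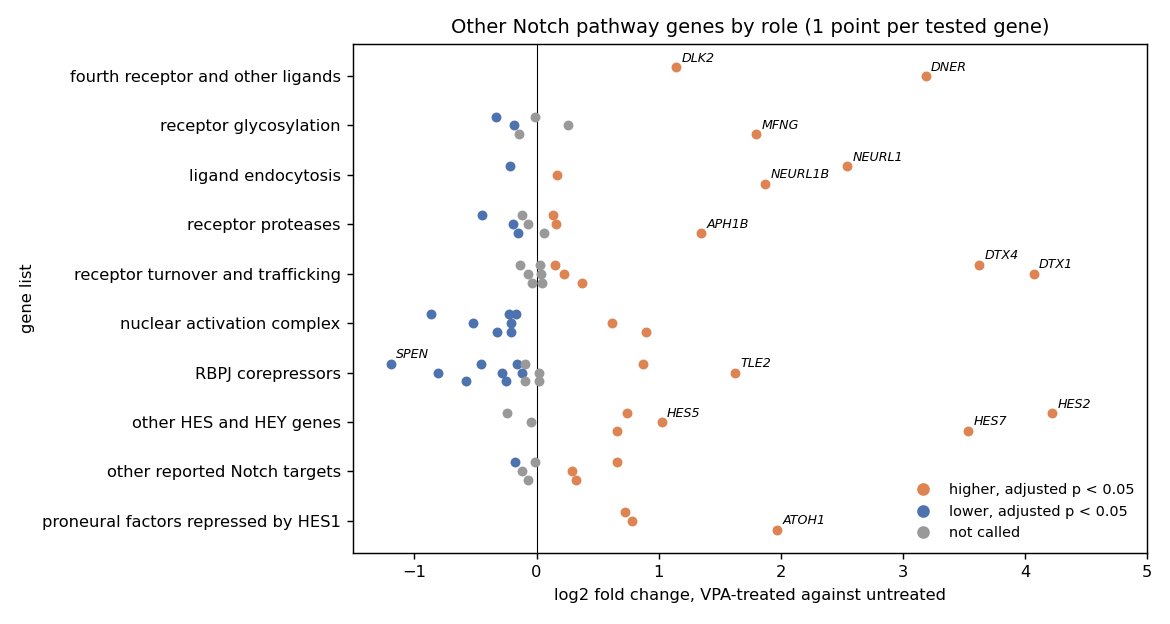
Log2 fold change (x axis) of the 72 tested genes of the wider Notch pathway, 1 point each, in rows by role, with genes at an adjusted p under 0.05 in orange (higher) or blue (lower), the others in grey, and symbols beside changes of at least 1 in size. SPEN lies at the far left, and HES2, DTX1, DTX4, HES7 and DNER, all with few counts in untreated cells, lie above 3. HES2, DTX1, DTX4, HES7 and DNER passed the filter only through the VPA-treated libraries.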

How the data were processed

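The deposited values are raw counts per gene, 1 file per library, without normalization. Reads were trimmed (SOAPnuke), mapped to hg38 (STAR) and assigned to genes (htseq-count) by the authors. The submitters' processing notes name STAR 2.7.10b and HTSeq 2.0.1. The gene annotation is not given in the sources used here. The 5 summary lines of the counting were left out. They held 6.80% to 7.69% of reads off any gene, 1.97% to 2.10% ambiguous and 2.81% to 2.92% not uniquely placed. The test was edgeR 4.0.16 in R 4.3.3 (TMM, filterByExpr with a count minimum of 10, robust quasi-likelihood fit, condition as the only term, prior count 0.125), checked on simulated counts. The biological coefficient of variation was 3.83%. Up- and down-regulation use the thresholds of the study, a minimum size of 1 on the log2 scale besides an adjusted p under 0.05. Members were called at the adjusted p alone otherwise.

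All 10 members are named. Of each pathway list at most the 3 genes of smallest adjusted p are named, with SPEN and RBPJ, and genes too low to test or used as copies or markers. The members and lists were chosen with earlier results of these data known. Ratios within a library, summed levels by role, folds between same-numbered libraries and classes by count level were added after the counts had been seen, as was the spelling GTGNGAA. Alternatives were DESeq2 1.42.0, other scalings and filters, a prior count of 2, an adjusted p under 0.01, the replicate number as a block and each library left out. Libraries with the same number deviated together in the 11065 genes whose mean reached 100 normalized counts (r = 0.40, 0.14 and 0.33 over genes, against -0.32 to 0.052 for different numbers). Over all 15298 tested genes r was 0.13, 0.018 and 0.071. Each pair thus passed 0.1 in the first set of genes and only the pair numbered 1 did in the second, so the pairing is a hint from the data, and the labels do not state it. Coordinates and promoters are from RefSeq on GRCh38.p14 and matched all 10 and 7 of the 10 members.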

Additional observations from a re-analysis of the deposited data

How the results depend on the processing

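Over the 10 members and 15 settings, 143 of 150 comparisons kept their direction and their side of the adjusted p threshold of 0.05, 6 were stronger and 1 was weaker. The 1 weaker was NOTCH2 with ribosomal protein scaling. The 6 stronger were DLL3 and HEY1 with upper quartile, library totals and ribosomal protein scaling, and each of these scalings gave 8 members higher. With library totals and ribosomal protein scaling JAG1 also passed a log2 fold change of 1, so 5 members were up-regulated in place of 4. With ribosomal protein scaling 1 member was lower in place of 2, 50 other pathway genes were higher in place of 29 and 7 lower in place of 22, and with library totals 9 were lower. This follows from the scaling. The median over all tested genes (log2) stood at 0.0058 for TMM, -0.0081 for DESeq2 size factors, 0.071 for upper quartile, 0.14 for library totals and 0.28 for ribosomal protein genes. Of the called genes 52.3%, 50.3%, 63.0%, 73.9% and 91.6%, in that order, were higher.

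The replicate block, which fits the pairing of libraries by number, gave 6 members higher and 2 lower, as without it, and 29 and 27 other pathway genes. With each library left out in turn 6 members were higher and 2 lower, 26 to 29 other pathway genes were higher and 19 to 24 lower. The difference in the largest share was -17.46 to -15.45 percentage points for NOTCH2, 9.74 to 10.6 for JAG2 and 2.38 to 3.22 for HEY1. DLL4, with 14 to 17 counts in each untreated library, had the widest error, and in the untested NOTCH4 a change was not detectable at this depth.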
